A study of Mus musculus with 26 samples.

Results

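Cholesterol and fatty acids are made in the cytosol and the endoplasmic reticulum from acetyl-CoA, and the genes of both routes share regulators. This account covers 28 mouse genes of these routes, chosen by name and found by their Ensembl identifiers among 48709 gene identifiers in the RNA tables. They comprise 18 enzymes of sterol synthesis, 5 genes of its control and of cholesterol transfer between membranes, and 5 genes of fatty acid synthesis. The libraries came from cochlear supporting cells, the neighbours of the sensory hair cells, in mouse organs taken on postnatal day 1 and cultured with DAPT, an inhibitor of gamma-secretase and so of Notch signalling, or with DMSO. At 24 h, cells carrying the Lfng-GFP reporter were sorted from DAPT-treated organs (3 RNA libraries) and from DMSO-treated organs (3 RNA libraries), and poly(A) RNA was sequenced. At 48 h, cells marked by Lfng-CreER and the red reporter TdT were sorted into 3 groups. Permissive cells were positive for TdT and for Atoh1-GFP after DAPT (3 RNA libraries), nonpermissive cells were sorted for TdT after DAPT (3 RNA libraries), and control cells were sorted for TdT after DMSO (2 RNA libraries); for these groups the labels name no Atoh1-GFP gate. The 48 h libraries were made from total RNA with a single-cell RNA kit, so levels at 24 h and at 48 h are not compared. For the 48 h groups there are also 2 ATAC-seq libraries each, which map open chromatin, and 2 CUT&RUN libraries each for H3K27ac, an acetylation mark of active promoters and enhancers. All media contained EGF and FGF. Both genes behind the sorting reporters are read here: Lfng, because its reporter or its Cre marked the cells, and Atoh1, because its reporter defined the permissive cells.

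In the cell, the transcription factor SREBP2, encoded by Srebf2, is held in the endoplasmic reticulum by SCAP and INSIG proteins when sterols are plentiful. When sterols fall it travels to the Golgi, is cut, and enters the nucleus to activate genes of sterol synthesis, while SREBP1, encoded by Srebf1, acts mainly on genes of fatty acid synthesis. These factors bind DNA weakly alone and act beside partners such as NF-Y, which binds the CCAAT box. Hair cells need new membrane for the hair bundle and for synapses, and cholesterol is a major component of those membranes.

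The promoters of 6 genes are shown because each of these genes rose in permissive cells against control cells, as described below, and has an entry in the RefSeq promoter table (GRCm38.p6, the build called mm10 by the authors). Each sequence runs from 250 bases before the annotated start to 50 bases after it, 5′ to 3′ on the strand of the gene. Capitals mark CCAAT on either strand (written ATTGG on the other strand) and, in Hmgcs1 alone, the sterol regulatory element TCACNCCAC. In Hmgcs1 the element begins at position -137 from the start and the 4 CCAAT boxes begin at -237, -176, -45 and 10, so the motifs do not overlap. The positions are Hmgcs1 chr13:119690101-119690400, plus strand; Idi1 chr13:8885356-8885655, plus strand; Lss chr10:76531355-76531654, plus strand. The remaining ones are Tm7sf2 chr19:6067801-6068100, minus strand; Msmo1 chr8:64733529-64733828, minus strand; Insig1 chr5:28071162-28071461, plus strand.
Hmgcs1: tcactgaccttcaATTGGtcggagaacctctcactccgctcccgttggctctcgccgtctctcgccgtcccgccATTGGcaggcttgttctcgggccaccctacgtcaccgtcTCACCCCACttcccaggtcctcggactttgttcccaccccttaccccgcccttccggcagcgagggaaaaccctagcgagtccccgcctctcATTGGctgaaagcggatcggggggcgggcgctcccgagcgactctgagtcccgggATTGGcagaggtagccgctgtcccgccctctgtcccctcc
Idi1: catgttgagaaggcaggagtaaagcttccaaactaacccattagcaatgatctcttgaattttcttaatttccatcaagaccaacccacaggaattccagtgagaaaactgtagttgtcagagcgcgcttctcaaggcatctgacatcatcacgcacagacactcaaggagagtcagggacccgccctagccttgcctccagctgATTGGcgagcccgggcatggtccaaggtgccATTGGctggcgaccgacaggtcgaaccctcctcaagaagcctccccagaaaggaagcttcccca
Lss: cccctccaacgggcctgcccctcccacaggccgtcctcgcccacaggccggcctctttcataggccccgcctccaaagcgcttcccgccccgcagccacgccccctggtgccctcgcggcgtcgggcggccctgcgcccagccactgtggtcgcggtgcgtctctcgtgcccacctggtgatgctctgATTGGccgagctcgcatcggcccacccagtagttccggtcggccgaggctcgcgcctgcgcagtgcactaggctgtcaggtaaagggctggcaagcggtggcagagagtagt
Tm7sf2: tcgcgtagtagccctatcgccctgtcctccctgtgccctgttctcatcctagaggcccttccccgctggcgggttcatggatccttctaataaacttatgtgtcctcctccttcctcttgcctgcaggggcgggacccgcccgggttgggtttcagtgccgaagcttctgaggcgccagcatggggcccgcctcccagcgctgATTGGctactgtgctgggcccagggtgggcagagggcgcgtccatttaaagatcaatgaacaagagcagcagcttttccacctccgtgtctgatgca
Msmo1: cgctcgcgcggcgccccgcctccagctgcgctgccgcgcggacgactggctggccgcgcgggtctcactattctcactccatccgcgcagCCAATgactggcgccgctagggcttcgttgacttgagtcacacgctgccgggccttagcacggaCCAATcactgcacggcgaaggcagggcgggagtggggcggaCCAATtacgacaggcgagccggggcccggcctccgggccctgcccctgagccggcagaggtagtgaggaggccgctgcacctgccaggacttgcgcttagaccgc
Insig1: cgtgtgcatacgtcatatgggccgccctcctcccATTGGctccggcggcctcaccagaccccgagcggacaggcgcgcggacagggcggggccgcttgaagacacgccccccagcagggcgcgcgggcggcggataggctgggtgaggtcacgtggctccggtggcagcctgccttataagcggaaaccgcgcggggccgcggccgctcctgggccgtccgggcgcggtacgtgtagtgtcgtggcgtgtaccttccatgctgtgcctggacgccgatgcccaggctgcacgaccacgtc

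A promoter was found for 22 of the 28 genes. Fdft1, Sqle, Fdps, Scd1, Scd2 and Stard4 are named only. CCAAT on either strand was present in the promoters of 14 of 15 sterol enzymes and of 19 of 22 genes in all, against 41.1% of 27025 genes in the table and 42.8% of the 10058 of them that were tested at 48 h. TCACNCCAC on either strand was present in 1 of 22, that of Hmgcs1, against 1.44% of the 27025 genes. Both motifs were picked with the expression results known, and a match describes letters, not binding. Only exact matches within these promoter stretches were counted. Variants of either pattern were not looked for, so a promoter without a match is not shown to lack such an element.

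Total counts were 10666050 to 13158897 per library at 24 h and 2165338 to 4896374 at 48 h, and the Spearman correlation between replicates was 0.979 to 0.994 at 24 h and 0.842 to 0.876 at 48 h. Mitochondrial genes took 2.35% to 3.03% of counts at 24 h. At 48 h they took 3.16%, 12.7% and 19.7% in permissive, 6.50%, 27.6% and 13.5% in nonpermissive, and 4.11% and 11.5% in control libraries. Levels below are CPM, read counts scaled to a common library size with TMM factors. Differences are log2 fold changes from edgeR's quasi-likelihood fit, and p-values are adjusted by Benjamini-Hochberg over all genes tested. The standard errors of the differences were derived from the test, as the size of the log2 fold change divided by the square root of its F statistic. A gene is said to have risen or fallen where the adjusted p was under 0.05. The labels do not say that replicates came from separate animals, so these p-values measure the spread between samples, which may be technical. In bulk samples, fewer cells of a type and less RNA per cell cannot be told apart.

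The label of the groups was compared with marker genes. Hes5, a Notch target, had 9.54, 3.70 and 5.71 CPM in DAPT libraries against 1848, 1551 and 1725 CPM in DMSO libraries at 24 h, and Atoh1 had 804, 1008 and 635 CPM in permissive, 30.2, 41.1 and 67.2 CPM in nonpermissive and 3.55 and 2.28 CPM in control libraries at 48 h. Lfng had 167, 201 and 234 CPM in DAPT against 1212, 883 and 835 CPM in DMSO libraries at 24 h, although its reporter was the gate in both. Lfng fell also in permissive against control cells (log2 fold change -2.90 ± 0.49, adjusted p = 0.00163). All 10 hair cell markers of a list rose in permissive cells against both other groups, where 5.72% (control) and 6.78% (nonpermissive) of all genes were called higher. Of 10 supporting cell markers, 7 fell against control cells and 5 against nonpermissive cells, where 7.28% and 6.35% of all genes were called lower. Against nonpermissive cells 1 of the 10 had a positive log2 fold change (2.39), which was not called.

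At 48 h the sterol enzymes were high in permissive cells. Summed over the 18 enzymes, the level was 1979, 2139 and 1872 CPM in the permissive libraries, 621, 743 and 732 CPM in the nonpermissive libraries and 609 and 655 CPM in the control libraries. Every permissive library thus stood above every other 48 h library, and nonpermissive and control libraries overlapped. Of the 18 enzymes, 16 had their highest 48 h library among the permissive ones, and none had its lowest there. The sum of the 5 fatty acid genes did not share this order: it was 2621, 1784 and 2086 CPM in permissive, 2709, 2749 and 2754 CPM in nonpermissive and 3220.3 and 3020.3 CPM in control libraries. Scd2 made up most of that sum, with means of 1372, 1907.5 and 2191 CPM in permissive, nonpermissive and control libraries. The sum of the 5 control and transfer genes was 753, 673 and 537 CPM in permissive, 334, 287 and 357 CPM in nonpermissive and 306 and 289.6 CPM in control libraries.

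**Figure D1:**
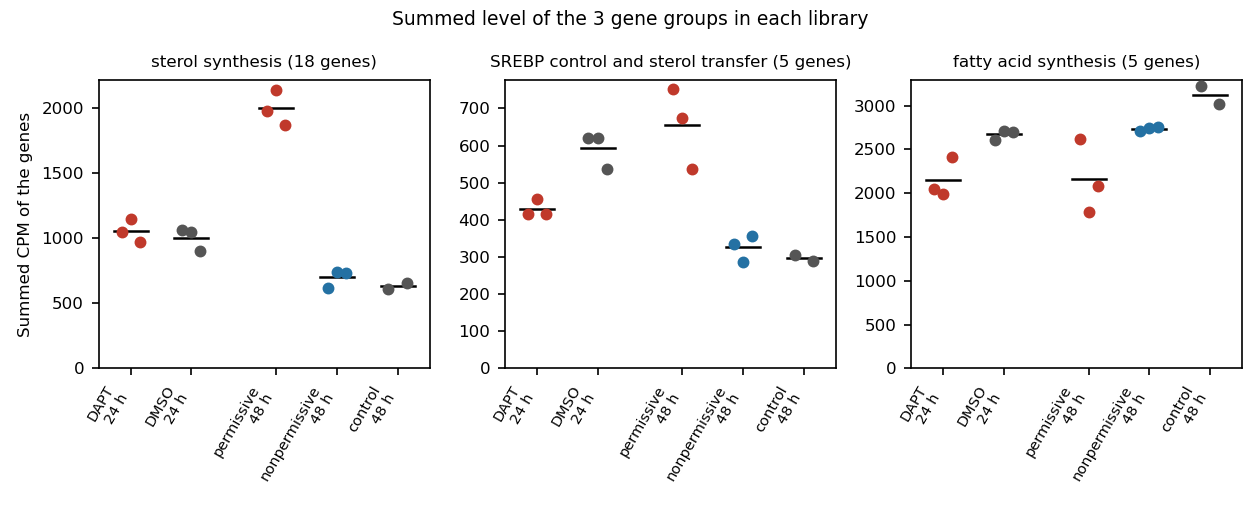
Summed CPM of the 3 groups of genes (y axis, linear from 0) in each RNA library; points are libraries, horizontal lines are group means, and 24 h and 48 h libraries were made with different kits. The 3 permissive libraries have 1872 to 2139 CPM of sterol enzymes, above the 609 to 743 CPM of the nonpermissive and control libraries.

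Against control cells, 8 of 18 sterol enzymes rose in permissive cells and none fell, 2 of 5 control and transfer genes rose, and no fatty acid gene passed the test. That is 10 of 28 higher and 0 of 28 lower, where 5.72% of all 13411 genes tested were called higher, 7.28% lower and 13.0% in either direction. The median log2 fold change was 1.73 over the sterol enzymes, 1.28 over the control and transfer genes and -0.68 over the fatty acid genes, against 0.06 over all genes tested. The CPM ranges of the groups did not overlap, with permissive higher, for 13 of 18 sterol enzymes, where 20.5% of all genes had this order, and for 3 of 28 genes (Srebf1, Scd2 and Elovl6) with permissive lower, where 20.1% had that order. Against nonpermissive cells, 8 of 28 genes rose and 1 fell, where 6.78% of all genes were called higher, 6.35% lower and 13.1% in either direction. The sterol enzymes' median was then 1.57, against -0.001 over all genes, and 15 of 18 had higher, non-overlapping levels, against 15.4% of all genes; for 3 of 28 genes (Srebf1, Scd1 and Scd2) permissive was lower without overlap, against 14.7%. The 48 h comparisons share libraries with each other, so their values are given side by side and not as support for one another.

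Leaving out single libraries moved these counts. Against control cells, the 10 higher genes became 4 without control replicate 1, 1 (Fdft1) without control replicate 2 and 6 without permissive replicate 2. Against nonpermissive cells, the 8 higher genes became 1 (Sqle) without nonpermissive replicate 1, 3 without nonpermissive replicate 2, 5 without nonpermissive replicate 3 and 4 without permissive replicate 2. Without the 2 libraries with over 15% mitochondrial counts (permissive replicate 3 and nonpermissive replicate 2) the counts were 6 against control cells and 2 against nonpermissive cells, and Scd1 was no longer called lower. No called difference changed its sign in any of the 15 alternatives.

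The first steps, up to farnesyl diphosphate, make the isoprenoid building blocks. Hmgcs1, which makes HMG-CoA at the entry of the route, had 334, 291 and 174 CPM in permissive, 107, 116 and 78.1 CPM in nonpermissive and 111 and 43.9 CPM in control libraries. All 3 permissive libraries lay above the other 5. Hmgcs1 rose against control cells (1.78 ± 0.52, adjusted p = 0.0353); against nonpermissive cells it missed the threshold (1.41 ± 0.44, adjusted p = 0.0502) but passed it with replicate number as a block (adjusted p = 0.0220). Idi1, the isomerase that makes dimethylallyl diphosphate, had 98.8, 59.9 and 52.6 CPM in permissive, 23.5, 21.1 and 19.2 CPM in nonpermissive and 16.3 and 6.85 CPM in control libraries. Its permissive libraries did not overlap the others, and it rose against control cells (2.60 ± 0.59, adjusted p = 0.00948) and against nonpermissive cells (1.73 ± 0.49, adjusted p = 0.0304). Fdps, farnesyl diphosphate synthase, had 74.5, 149.95 and 106 CPM in permissive, 30.7, 29.7 and 57.0 CPM in nonpermissive and 17.2 and 33.7 CPM in control libraries. It rose against control cells (2.12 ± 0.56, adjusted p = 0.0222); against nonpermissive cells the adjusted p was 0.0524, and 0.0259 with the block. The other four members of these steps, the thiolase Acat2, the kinases Mvk and Pmvk and the decarboxylase Mvd, were not called in either comparison. Their log2 fold changes against control cells were 1.73, 1.38, 1.73 and -0.26, and Mvd was the 1 sterol enzyme with a negative value there. Of the calls against control cells, Hmgcs1 lost its call without control replicate 2, permissive replicate 1 or permissive replicate 2 (adjusted p = 0.0748 to 0.330) and in a fit of the 2 groups alone, Idi1 without control replicate 2 (0.124), and Fdps without control replicate 1, control replicate 2 or permissive replicate 2 (0.0538 to 0.183). Leaving out control replicate 1 gave log2 fold changes of 2.61 for Hmgcs1 and 3.36 for Idi1, and leaving out control replicate 2 gave 1.18 for Hmgcs1. Against nonpermissive cells Idi1 lost its call without any 1 of the 3 nonpermissive libraries or without permissive replicate 1 (0.0793 to 0.132).

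The next steps build squalene and close it into the first sterol. Fdft1, squalene synthase, had 288, 324 and 434 CPM in permissive, 76.5, 131 and 133 CPM in nonpermissive and 59.8 and 67.3 CPM in control libraries, and its permissive libraries lay above all others. It rose 5.48-fold against control cells (2.45 ± 0.47, adjusted p = 0.00334), a call kept in each of 15 alternatives, and 3.07-fold against nonpermissive cells (1.62 ± 0.39, adjusted p = 0.0131). The nonpermissive against control difference of Fdft1 was 0.84 ± 0.43 and was not called, although the 3 nonpermissive libraries lay above both controls. Sqle, squalene epoxidase, had 354, 248 and 279 CPM in permissive, 80.7, 97.6 and 75.8 CPM in nonpermissive and 86.2 and 138 CPM in control libraries. No other 48 h library reached the permissive range. Sqle rose against nonpermissive cells (1.80 ± 0.38, adjusted p = 0.00656, kept in each of 15 alternatives) and against control cells (1.39 ± 0.43, adjusted p = 0.0476). Lss, lanosterol synthase, had 39.4, 122 and 32.3 CPM in permissive, 20.9, 11.99 and 19.2 CPM in nonpermissive and 8.41 and 7.42 CPM in control libraries. Permissive replicate 2 stood well above the other permissive libraries, and the groups did not overlap. Lss rose against control cells (3.02 ± 0.70, adjusted p = 0.0108) and against nonpermissive cells (1.88 ± 0.57, adjusted p = 0.0420), where the block raised the adjusted p to 0.0612. Without nonpermissive replicate 1 Fdft1 was no longer called against nonpermissive cells (adjusted p = 0.0675), and it was not called there without the 2 libraries rich in mitochondrial counts. Sqle against control cells lost its call in 7 of 8 fits with 1 library left out, all but that without nonpermissive replicate 2 (0.0612 to 0.307). Lss lost its call against control cells without control replicate 1 or 2 (0.0698 to 0.0929), and against nonpermissive cells without any 1 of the 3 nonpermissive libraries or without permissive replicate 2 (0.0887 to 0.300). Without permissive replicate 2 the log2 fold change of Lss was 2.18 against control cells and 1.04 against nonpermissive cells.

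Later steps trim and reduce lanosterol to cholesterol. Msmo1, the methylsterol monooxygenase that begins removal of the methyl groups at carbon C4, had 178, 334 and 255 CPM in permissive, 43.3, 131 and 64.0 CPM in nonpermissive and 63.2 and 51.4 CPM in control libraries. Nonpermissive replicate 2 was the nearest to the permissive range and stayed below it. Msmo1 rose against control cells (2.16 ± 0.54, adjusted p = 0.0178) and against nonpermissive cells (1.69 ± 0.46, adjusted p = 0.0263). Tm7sf2, a sterol reductase, had 91.8, 229 and 154 CPM in permissive, 26.5, 21.7 and 79.4 CPM in nonpermissive and 32.4 and 43.7 CPM in control libraries. Nonpermissive replicate 3 lay close under the lowest permissive library. Tm7sf2 rose against control cells (2.06 ± 0.63, adjusted p = 0.0459) and against nonpermissive cells (1.89 ± 0.54, adjusted p = 0.0331). Cyp51, the lanosterol demethylase, had 107, 41.8 and 77.2 CPM in permissive, 30.4, 27.4 and 21.1 CPM in nonpermissive and 24.7 and 30.2 CPM in control libraries. It rose against nonpermissive cells (1.52 ± 0.46, adjusted p = 0.0455) and was not called against control cells (1.46 ± 0.53, adjusted p = 0.0930), although its permissive libraries lay above both controls. The remaining enzymes of these steps, Nsdhl, Hsd17b7, Ebp, Sc5d and Dhcr7, were called in no 48 h comparison. Dhcr7, which performs the final reduction to cholesterol in one branch, had 129, 43.5 and 43.7 CPM in permissive, 38.5, 7.99 and 40.6 CPM in nonpermissive and 45.1 and 62.5 CPM in control libraries. Permissive replicate 1 alone stood high, so the permissive and control ranges overlapped. Ebp, the sterol isomerase, had 9.08, 28.4 and 35.2 CPM in permissive, 12.3, 17.7 and 30.1 CPM in nonpermissive and 7.11 and 18.5 CPM in control libraries, and the 3 groups overlapped. Nsdhl and Hsd17b7 were above the other groups in every permissive library, with log2 fold changes against control cells of 0.58 ± 0.43 and 1.97 ± 0.74. Sc5d, a desaturase, differed by 0.23 ± 0.71 against control cells and by -0.28 ± 0.64 against nonpermissive cells.

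Of these calls, Msmo1 against control cells ended without control replicate 1 or 2 (adjusted p = 0.0844 to 0.148) and against nonpermissive cells without nonpermissive replicate 1 or 3 or permissive replicate 2 (0.0906 to 0.106). Tm7sf2 was not called against control cells without control replicate 1 or 2 or permissive replicate 2 or 3 (0.0674 to 0.224), nor against nonpermissive cells without nonpermissive replicate 1 or 2 or permissive replicate 2 or 3 (0.0540 to 0.126). Its log2 fold change against nonpermissive cells was 2.70 without nonpermissive replicate 3. Cyp51 against nonpermissive cells lost its call without any 1 library other than permissive replicate 2 (0.0539 to 0.178), and also when mitochondrial genes were left out and in a fit of the 2 groups alone.

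**Figure D2:**
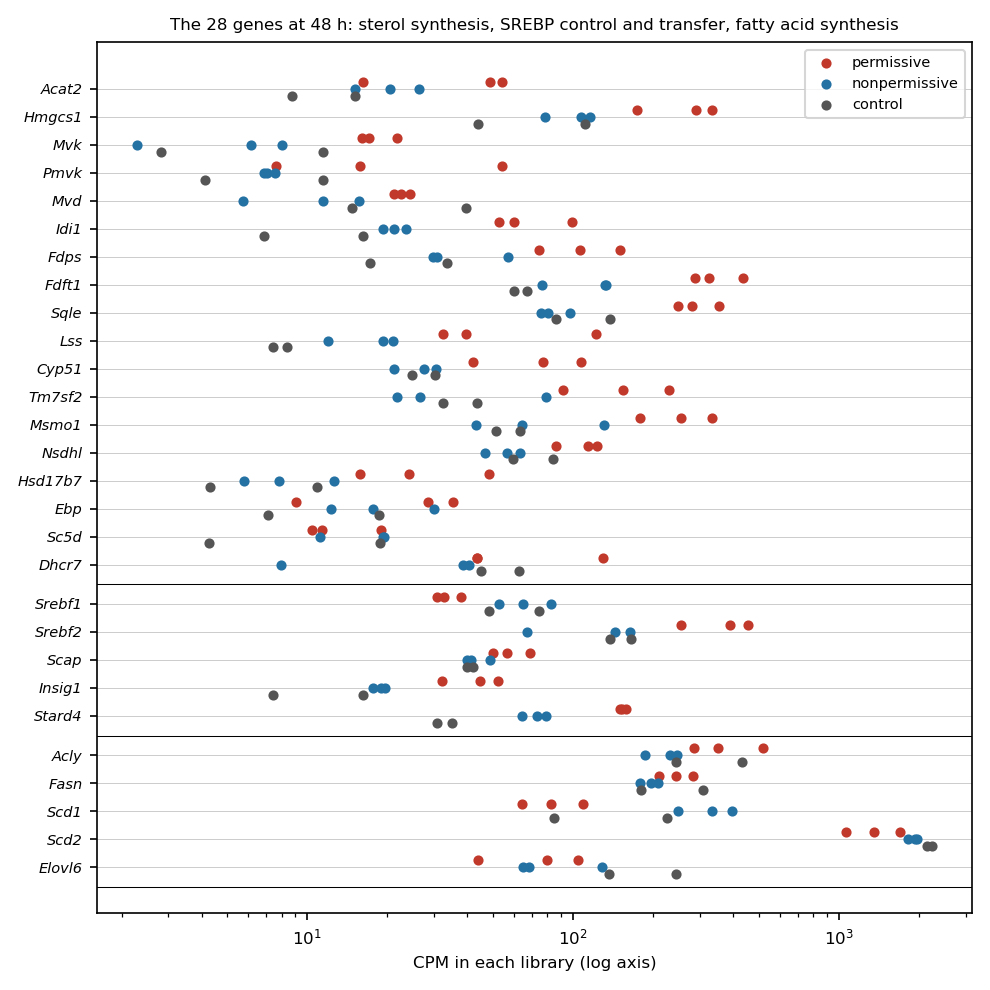
CPM of each of the 28 genes in each 48 h RNA library (x axis, log scale; each point is 1 library, with the 3 groups on separate lines of a gene). Fdft1 has 288 to 434 CPM in permissive libraries and at most 133 CPM elsewhere, while Scd1 has 64.3 to 109 CPM in permissive libraries and 249 to 398 CPM in nonpermissive ones.

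Among the genes of control and transfer, Srebf2, the factor of sterol synthesis, had 454, 388 and 254 CPM in permissive, 144, 66.8 and 164 CPM in nonpermissive and 165 and 137 CPM in control libraries. The permissive libraries lay above all others. Srebf2 rose against nonpermissive cells (1.55 ± 0.43, adjusted p = 0.0277) and was not called against control cells (1.28 ± 0.49, adjusted p = 0.108). Srebf1, the factor of fatty acid synthesis, ran the other way: it had 32.8, 30.8 and 38.0 CPM in permissive, 65.1, 82.8 and 52.8 CPM in nonpermissive and 48.1 and 74.2 CPM in control libraries. Its permissive libraries were the lowest of the 8 without overlap, but neither difference was called (-0.85 ± 0.45 against control cells, adjusted p = 0.263, and -0.98 ± 0.41 against nonpermissive cells, adjusted p = 0.147). Insig1, the sterol-responsive anchor that retains SREBP in the endoplasmic reticulum, had 52.2, 32.1 and 44.5 CPM in permissive, 19.5, 17.7 and 18.9 CPM in nonpermissive and 16.3 and 7.42 CPM in control libraries. The 3 groups stood in that order without overlap. Insig1 rose against control cells (1.85 ± 0.58, adjusted p = 0.0494), close to the threshold. Stard4, which carries cholesterol between membranes, had 158, 153 and 150.01 CPM in permissive, 64.2, 79.4 and 73.3 CPM in nonpermissive and 35.2 and 30.8 CPM in control libraries, again in that order without overlap. It rose against control cells (2.22 ± 0.43, adjusted p = 0.00392); against nonpermissive cells the adjusted p was 0.0617, and 0.0449 with the block. Scap, the escort of SREBP, differed by 0.51 ± 0.45 against control cells and was not called. Without control replicate 1 the log2 fold change of Insig1 was 2.53. The Insig1 call ended without any 1 of the 8 libraries (adjusted p = 0.0519 to 0.358), that of Stard4 without control replicate 2 (0.0575), and that of Srebf2 without nonpermissive replicate 1 or 2 or permissive replicate 1 or 2 (0.0647 to 0.0881).

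The fatty acid genes gave 1 call at 48 h. Scd1, a desaturase that puts a double bond into stearoyl-CoA, had 109, 82.3 and 64.3 CPM in permissive, 398, 333 and 249 CPM in nonpermissive and 226 and 84.7 CPM in control libraries. The nonpermissive libraries were the highest and the controls overlapped the permissive range. Scd1 fell in permissive against nonpermissive cells (-1.94 ± 0.45, adjusted p = 0.0105) and was not called against control cells (-0.87 ± 0.48, adjusted p = 0.281); without the 2 libraries rich in mitochondrial counts the first call was lost (adjusted p = 0.0754). Scd2, a second stearoyl-CoA desaturase, had 1703, 1063 and 1349.7 CPM in permissive, 1818, 1968 and 1937 CPM in nonpermissive and 2245 and 2138 CPM in control libraries. The permissive libraries were the lowest, yet the difference against control cells, -0.68 ± 0.39, was not called (adjusted p = 0.311). Elovl6, which lengthens fatty acids, had 79.7, 43.8 and 104 CPM in permissive, 68.4, 64.5 and 128 CPM in nonpermissive and 136 and 244 CPM in control libraries. Both DAPT groups lay below the controls, with differences of -1.33 ± 0.50 for permissive (adjusted p = 0.101) and -1.12 ± 0.50 for nonpermissive cells (adjusted p = 0.647). Acly, which makes cytosolic acetyl-CoA from citrate, and Fasn, fatty acid synthase, differed against control cells by 0.18 ± 0.44 and 0.00 ± 0.41. Every permissive library had more of both than any nonpermissive library, an order that 15.4% of all genes had, but neither was called. Acly had 285 to 519 CPM in permissive and 187 to 247 CPM in nonpermissive libraries, and Fasn 211 to 283 and 179 to 209 CPM. Scd1 and Scd2 are near relatives, and how the counting program divided reads between them was not checked here; the other desaturase copies stayed low, Scd3 with at most 3.50 CPM on average in any group.

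**Figure D3:**
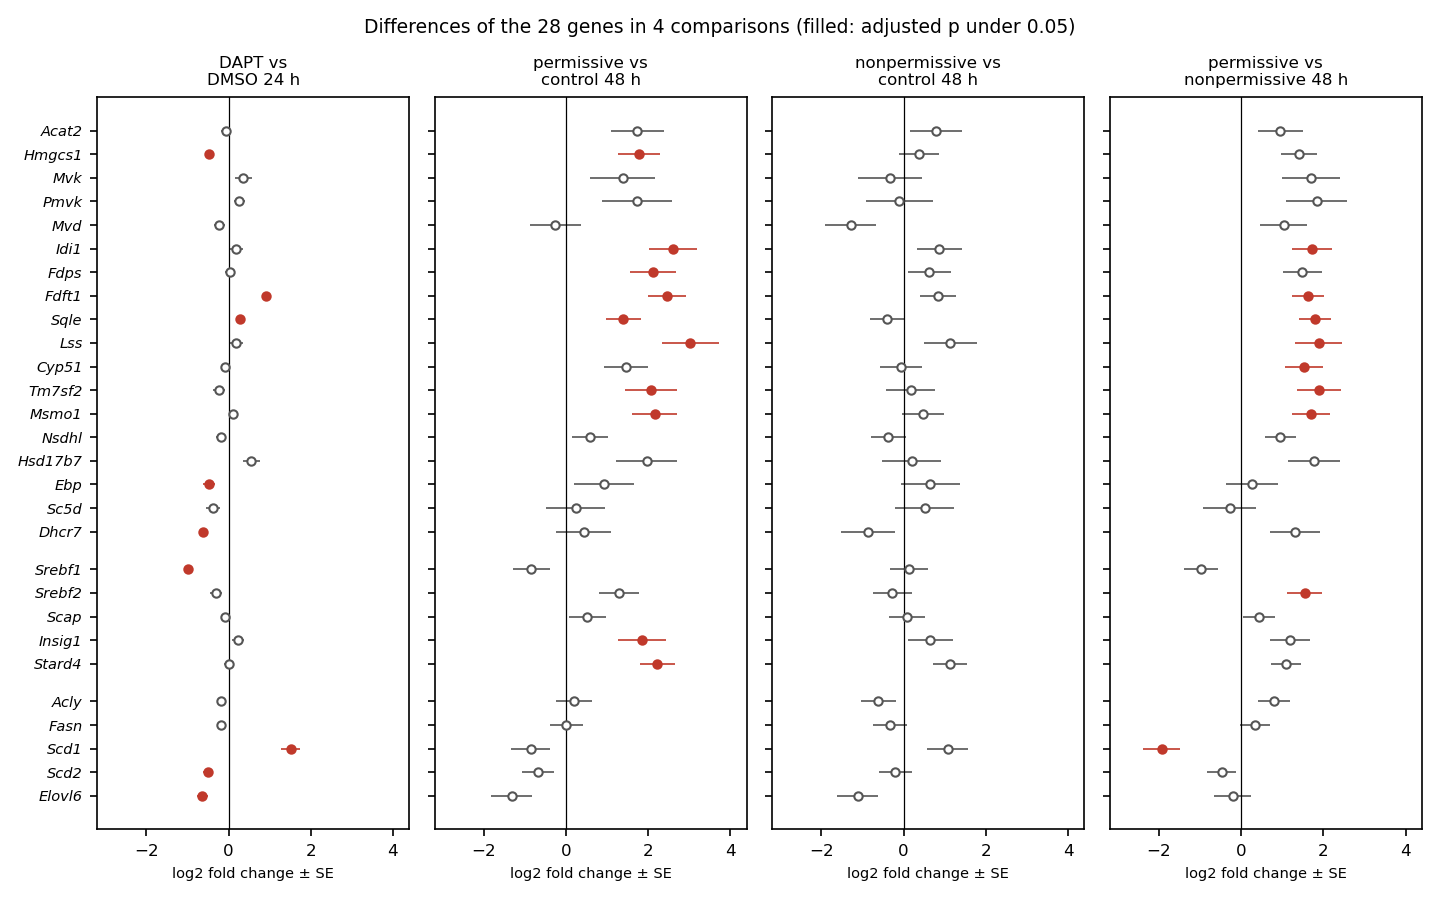
Log2 fold change of each gene in 4 comparisons (x axis; positive means higher in the group named first; bars are ± 1 standard error; filled red points have an adjusted p under 0.05). In the permissive against control panel 17 of 18 sterol enzymes lie to the right of 0, and in the nonpermissive against control panel no point is filled.

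In nonpermissive against control cells, both sorted for TdT, none of the 28 genes was called in either direction, where 0.0671% of all genes were called higher, 0.127% lower and 0.194% in either direction. The edgeR test gave 3 of 28 at an unadjusted p under 0.05, and DESeq2 likewise called none. The sterol enzymes' median log2 fold change was 0.28 with 11 of 18 positive, against 0.005 over all genes. For 6 of 28 genes the nonpermissive libraries were all above the controls, where 10.1% of all genes had this order, and for 3 of 28 all below, against 10.4%. In all, 26 of 13411 genes were called in this comparison, and the standard errors of the 28 genes were 0.39 to 0.82 on the log2 scale.

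At 24 h, DAPT moved single genes of these routes in both directions. Of the 28 genes, 3 rose and 6 fell, where 11.5% of all 15174 genes tested were called higher, 14.2% lower and 25.7% in either direction. The share of 9 in 28 is near that background. The sterol enzymes summed to 1049, 1146 and 970.2 CPM in DAPT libraries against 1062, 1051 and 899 CPM in DMSO libraries, which overlapped, and their median log2 fold change was -0.01, against 0.01 over all genes. The fatty acid genes summed to 2053, 1993 and 2418 CPM in DAPT libraries against 2610.2, 2707 and 2696 CPM in DMSO libraries, without overlap, and their median was -0.18. Scd2 made up most of these sums, with means of 1277 CPM in DAPT and 1809 CPM in DMSO libraries. Of the 5 genes, 4 had negative log2 fold changes and 1, Scd1, a positive one. The sum of the control and transfer genes was 415, 456 and 416 CPM in DAPT against 621, 621 and 538 CPM in DMSO libraries. The CPM ranges did not overlap for 4 genes higher in DAPT and 8 lower, where 20.7% of all genes were higher and 21.7% lower in this way.

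Srebf1 had 142, 139 and 145 CPM in DAPT libraries against 274, 318 and 262 CPM in DMSO libraries. The groups did not overlap, and Srebf1 fell 2.00-fold (-0.999 ± 0.09, adjusted p = 0.000112). Among the fatty acid genes, 3 moved with different signs. Scd1 had 160.2, 159 and 252 CPM in DAPT libraries against 86.7, 64.8 and 49.3 CPM in DMSO libraries, and rose 2.85-fold (1.51 ± 0.24, adjusted p = 0.00185). Scd2 had 1217, 1154 and 1460.2 CPM in DAPT libraries against 1733, 1838 and 1856 CPM in DMSO libraries, and fell (-0.50 ± 0.11, adjusted p = 0.0103; 0.0546 without DAPT replicate 1). Elovl6 had 40.0, 37.8 and 38.7 CPM in DAPT libraries against 65.6, 67.0 and 48.4 CPM in DMSO libraries, and fell (-0.64 ± 0.13, adjusted p = 0.00769). None of these 4 genes overlapped between the groups. Acly and Fasn were lower in every DAPT library but were not called (-0.18 ± 0.08, adjusted p = 0.131, and -0.18 ± 0.07, adjusted p = 0.112).

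Among the sterol enzymes at 24 h, Fdft1 had 97.1, 113 and 99.5 CPM in DAPT libraries against 60.05, 54.8 and 51.1 CPM in DMSO libraries. It rose 1.87-fold without overlap (0.90 ± 0.10, adjusted p = 0.000259). Sqle had 174, 168 and 166 CPM in DAPT libraries against 142, 146 and 128 CPM in DMSO libraries, a small rise (0.29 ± 0.08, adjusted p = 0.0293) that lost its call when any DMSO library, DAPT replicate 1 or DAPT replicate 2 was left out (adjusted p = 0.0530 to 0.122). Hmgcs1 had 106, 115 and 109.9 CPM in DAPT libraries against 160.3, 161 and 137 CPM in DMSO libraries, and fell (-0.47 ± 0.09, adjusted p = 0.00534). Dhcr7 had 27.9, 30.8 and 25.5 CPM in DAPT libraries against 40.0, 43.5 and 45.2 CPM in DMSO libraries, and fell (-0.61 ± 0.11, adjusted p = 0.00385). Ebp had 10.1, 12.7 and 11.6 CPM in DAPT libraries against 16.5, 16.0 and 15.4 CPM in DMSO libraries, and fell (-0.48 ± 0.14, adjusted p = 0.0395), a call lost when any of those 5 libraries was left out (0.0514 to 0.151) and with no filter on low counts. The other 13 enzymes were not called, with adjusted p of 0.0900 (Hsd17b7, 0.56 ± 0.21) and above. Of the genes that rose at 48 h in permissive against control cells, Idi1, Fdps, Lss, Tm7sf2, Msmo1, Insig1 and Stard4 had log2 fold changes of 0.18, 0.04, 0.18, -0.24, 0.11, 0.22 and 0.01 at 24 h, none of them called.

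**Figure D4:**
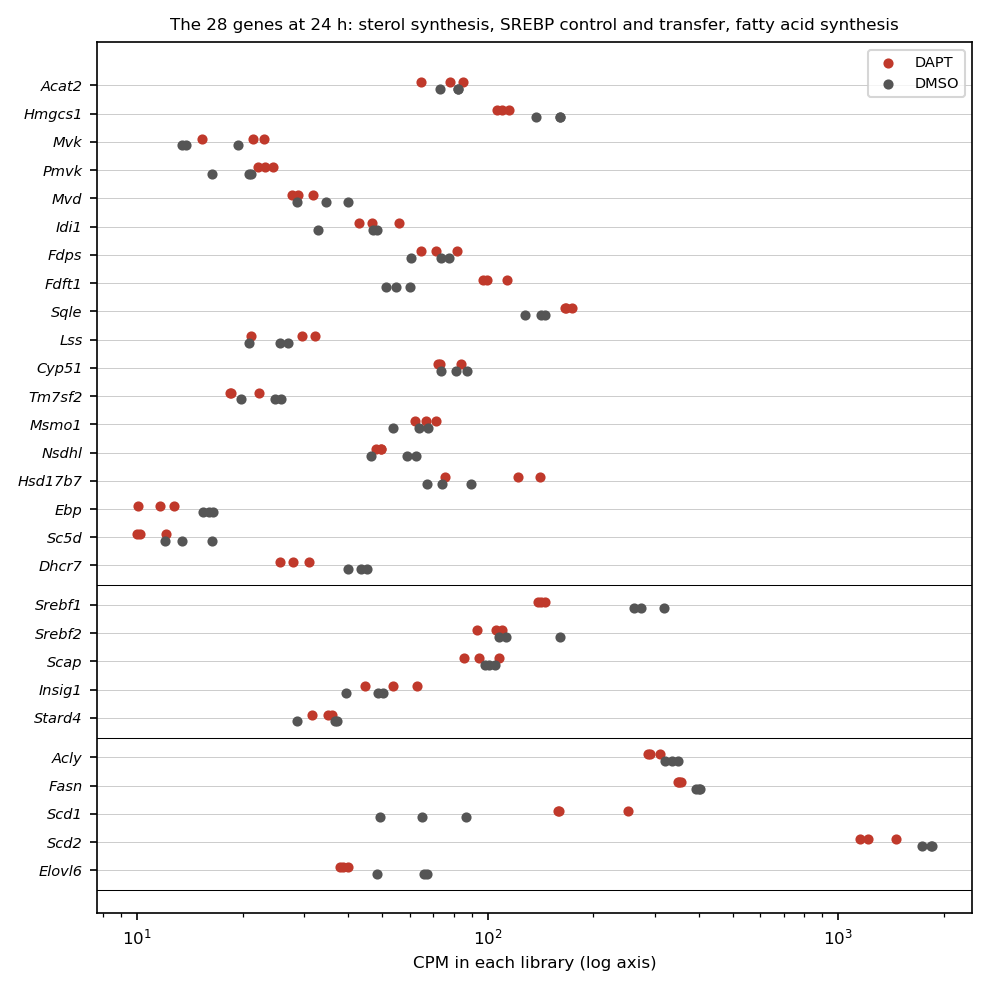
CPM of each of the 28 genes in each 24 h RNA library (x axis, log scale; each point is 1 library). Srebf1 has 139 to 145 CPM in DAPT and 262 to 318 CPM in DMSO libraries, and most sterol enzymes overlap between the groups.

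Levels corrected for transcript length, as TPM (transcripts scaled to a common total), place the genes in order within a group. Scd2 was highest in every group, at 449 ± 53.0 TPM in DAPT and 644 ± 29.2 TPM in DMSO libraries at 24 h (SD, n = 3 each), and at 436 ± 244 TPM in permissive (SD, n = 3), 560.5 ± 173 TPM in nonpermissive (SD, n = 3) and 741 ± 200.3 TPM in control libraries (SD, n = 2). At 24 h the next were Acly and Fdps in DAPT libraries (139 ± 6.52 and 123 ± 14.0 TPM) and Srebf1 and Acly in DMSO libraries (172 ± 24.5 and 161 ± 7.43 TPM). In DAPT libraries Fdps, Fasn and Sqle (121 ± 16.5 and 121 ± 5.38 TPM for the other two) differed by less than their spread, as did Srebf1 and Acly in DMSO libraries. In permissive libraries the next were Msmo1, Fdft1 and Tm7sf2 at 287 ± 4.13, 204 ± 51.3 and 194 ± 21.1 TPM. Scd2 exceeded Msmo1 there by less than the spread of Scd2, and Fdft1 and Tm7sf2 differed by less than their spread. In nonpermissive and control libraries Msmo1 was the sterol enzyme with the highest TPM, at 83.5 ± 25.2 and 76.3 ± 23.5 TPM, but by less than the spread over Fdft1 in nonpermissive libraries (62.4 ± 6.93 TPM) and over Sqle in control libraries (73.9 ± 7.51 TPM). Lss was the lowest of the 28 in control libraries at 2.33 ± 0.488 TPM, and Sc5d the lowest in permissive libraries at 11.4 ± 7.80 TPM, each within the spread of Hsd17b7 (2.81 ± 1.14 TPM in control and 12.3 ± 11.4 TPM in permissive libraries). The expected counts behind single values ranged from 111 to 22175 at 24 h and from 4 to 12003 at 48 h. The lowest at 48 h was that of Mvk in nonpermissive replicate 2, followed there by Mvd with 10 and Pmvk with 12, and such low counts carry the most counting error.

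Other genes of lipid metabolism were read from lists, whose counts stand beside the shares of all genes tested: 5.72% higher and 7.28% lower in permissive against control cells, 6.78% higher and 6.35% lower against nonpermissive cells, and 11.5% higher and 14.2% lower with DAPT at 24 h. Of 17 other enzymes of lipid synthesis, 2 rose and none fell in permissive against control cells, 3 rose and none fell against nonpermissive cells, none was called in nonpermissive against control cells, and 3 rose and 2 fell with DAPT at 24 h. The 24 h count of 5 in 17 is near the 25.7% of all genes called in either direction. Acss2, which makes acetyl-CoA from acetate, had 91.6, 93.7 and 90.2 CPM in permissive, 4.47, 14.8 and 7.68 CPM in nonpermissive and 8.04 and 3.99 CPM in control libraries. The permissive libraries were close together and far above the others, and Acss2 rose against control cells (3.91 ± 0.66, adjusted p = 0.00155) and against nonpermissive cells (3.38 ± 0.55, adjusted p = 0.00120). Hacd3, a dehydratase of fatty acid elongation, rose against the same groups (1.91 ± 0.48, adjusted p = 0.0179, and 2.24 ± 0.42, adjusted p = 0.00304). Aacs, which makes acetoacetyl-CoA, rose against nonpermissive cells (1.97 ± 0.47, adjusted p = 0.0124) and with DAPT at 24 h (0.74 ± 0.14, adjusted p = 0.00596). At 24 h Slc25a1, the mitochondrial citrate carrier, also rose (0.41, adjusted p = 0.0231), and Elovl5 and Acaca, an elongase and acetyl-CoA carboxylase, fell (-0.73, adjusted p = 0.000381, and -0.51, adjusted p = 0.0162). The list's median log2 fold change was -0.16 in permissive against control cells and 0.07 at 24 h.

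Genes that export cholesterol or modify membrane lipid under LXR, the receptor for oxysterols, moved singly. Of 5 tested from a list of 6, 1 rose and 1 fell in permissive against control cells, and likewise against nonpermissive cells, while 2 rose at 24 h and none was called in nonpermissive against control cells. Over all genes, 13.0%, 13.1% and 25.7% were called in either direction in the first 3 of these comparisons, so with 5 genes these counts do not set the list apart. Abca1, the exporter of cholesterol to apolipoprotein, had 15.5, 12.05 and 27.1 CPM in permissive, 164, 117 and 92.2 CPM in nonpermissive and 228 and 134 CPM in control libraries. The permissive libraries were far below all others, and Abca1 fell against control cells (-3.32 ± 0.50, adjusted p = 0.000672) and against nonpermissive cells (-2.78 ± 0.46, adjusted p = 0.00142). Lpcat3, a phospholipid acyltransferase, rose against control cells (1.92 ± 0.50, adjusted p = 0.0201), against nonpermissive cells (1.75 ± 0.43, adjusted p = 0.0147) and at 24 h (1.08 ± 0.09, adjusted p = 7.03e-05). Abcg1, a second cholesterol exporter, rose at 24 h (1.11 ± 0.08, adjusted p = 3.56e-05).

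Of 8 genes of sterol uptake, egress and esterification, 1 rose in permissive cells against either other group and none fell. That gene, the lipoprotein receptor Lrp8, had 93.3, 93.4 and 120.1 CPM in permissive, 8.94, 9.14 and 7.36 CPM in nonpermissive and 27.1 and 25.96 CPM in control libraries, and differed by 1.94 ± 0.47 against control cells (adjusted p = 0.0149) and by 3.59 ± 0.45 against nonpermissive cells (adjusted p = 0.000215). At 24 h 1 of the 8 rose, the cholesterol-esterifying enzyme Soat1 (1.70 ± 0.23, adjusted p = 0.000860), and 3 fell: Scarb1, Stard3 and Npc1, at -0.70, -0.31 and -0.57 (adjusted p = 0.00600, 0.0285 and 0.0436). None of 7 genes of SREBP processing and turnover was called at 48 h, and at 24 h Rnf139, a ubiquitin ligase, rose (0.34, adjusted p = 0.0112) and Erlin2 fell (-0.53, adjusted p = 0.00110). None of 8 genes of fatty acid oxidation was called at 48 h. At 24 h Cpt1a and Hadhb of that list rose (0.62, adjusted p = 0.00224, and 0.39, adjusted p = 0.0317) and Cpt2 and Acadvl fell (-0.87, adjusted p = 0.000186, and -0.27, adjusted p = 0.0230).

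Markers of several cell types moved together with the sterol enzymes at 48 h, and their part in the result was not tested. Counts of called markers stand beside the shares of all genes tested. These were 5.72% higher and 7.28% lower in permissive against control cells, and 6.78% and 6.35% against nonpermissive cells. The 10 hair cell markers summed to 4928 to 6818 CPM in permissive, 255 to 340.4 CPM in nonpermissive and 150.36 to 278 CPM in control libraries, and 10 of 10 rose against either group. The 10 supporting cell markers summed to 1023 to 1102 CPM in permissive, 6734 to 12151 CPM in nonpermissive and 9498 to 13388 CPM in control libraries. The mesenchyme markers summed to 229 to 683 CPM in permissive, 1392 to 3414 CPM in nonpermissive and 623 to 2724 CPM in control libraries. Of 9 tested, 1 fell against control cells, and 1 rose and 2 fell against nonpermissive cells. Of the glial markers 3 of 6 tested fell against control cells, with sums of 112 to 286 CPM in permissive, 544 to 780.5 CPM in nonpermissive and 581 to 1082 CPM in control libraries. Markers of melanocytes and stria summed to 11.7 to 33.1 CPM in permissive, 202 to 359 CPM in nonpermissive and 226 to 488 CPM in control libraries. The pigment genes Tyr, Dct and Pmel were at 0 in every permissive library. Zeros were not particular to these: of the 6 markers, 3 and 2 were at 0 in control replicates 1 and 2. In nonpermissive replicates 1, 2 and 3 the number at 0 was 2, 1 and 1. Neuron markers summed to 127 to 208 CPM in permissive, 2.24 to 10.3 CPM in nonpermissive and 4.67 to 5.14 CPM in control libraries, and 3 of 4 tested rose against control cells. Immediate early and stress genes summed to 502 to 1377 CPM in permissive, 1670.4 to 2967 CPM in nonpermissive and 1719.6 to 3242 CPM in control libraries. Endothelial markers summed to 43.7 to 135 CPM in permissive, 102 to 257 CPM in nonpermissive and 13.3 to 46.2 CPM in control libraries. Of 7 tested, 2 rose against control cells, where all 7 had positive log2 fold changes. Against nonpermissive cells all 7 were negative and none was called. Cell cycle genes summed to 191 to 613 CPM in permissive, 359 to 499 CPM in nonpermissive and 102 to 142 CPM in control libraries. Of 8 tested, 1 rose against control cells and none was called against nonpermissive cells. The 8 blood and macrophage markers summed to 60.05 to 175 CPM in permissive, 21.1 to 115 CPM in nonpermissive and 32.5 to 64.5 CPM in control libraries, but 1 gene carried the permissive sum: Laptm5, named here after its values were seen, had 60.05, 79.3 and 166 CPM in permissive, 14.0, 5.14 and 27.5 CPM in nonpermissive and 5.05 and 18.5 CPM in control libraries. Laptm5 rose against control cells (3.12 ± 0.81, adjusted p = 0.0202), while the other 5 tested had negative log2 fold changes against either group, none of them called, and 7 of the 8 markers were at 0 in permissive replicate 1. At 24 h, hair cell markers summed to 3862 to 7063 CPM in DAPT against 1788 to 2171 CPM in DMSO libraries, where 7 of 10 rose, and supporting cell markers to 7679 to 9506 CPM in DAPT against 14786 to 16301 CPM in DMSO libraries, where 9 of 10 fell. Glial markers summed to 230.4 to 299.7 CPM in DAPT against 534 to 610.1 CPM in DMSO libraries, where 4 of 6 tested fell and 1 rose. Markers of melanocytes and stria summed to 44.5 to 77.7 CPM in DAPT against 112 to 148 CPM in DMSO libraries, where 3 of 4 tested fell. Neuron markers summed to 262 to 699 CPM in DAPT against 275 to 301 CPM in DMSO libraries, where 3 of 5 tested rose, and immediate early and stress genes to 2416 to 3016 CPM in DAPT against 3226 to 4313 CPM in DMSO libraries, where 3 of 8 fell. Of the mesenchyme markers 2 of 8 tested rose and 2 fell, of blood and macrophage markers 1 of 2 rose (Laptm5), and of cell cycle genes 1 of 5 fell. Over all genes at 24 h, 11.5% were called higher, 14.2% lower and 25.7% in either direction. With so few genes, the mesenchyme, blood and cell cycle counts do not set those lists apart. The part of these markers in the 24 h results was not tested either.

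Open chromatin lay at the starts of these genes in every group. A deposited ATAC peak fell within 1 kb of the start for 22 of 22 genes with a promoter in the table, in all 6 lists. The same held for 89.4% to 95.8% of the 10058 genes tested at 48 h, so the share is near that of other expressed genes. An H3K27ac peak lay there for 22 and 19 of 22 genes in the permissive lists, 21 and 18 in the nonpermissive lists and 19 and 20 in the control lists. Of the tested genes, 81.3% and 68.2% had one in the permissive lists, 80.2% and 67.7% in the nonpermissive lists and 62.5% and 68.9% in the control lists. Scap, the escort gene, had no H3K27ac peak in 5 of the 6 lists, and Insig1 none in 1 control and 1 nonpermissive list. The promoter shown for Hmgcs1 had peaks of both kinds in all 6 lists. The lists differ in length, from 46284 to 114572 H3K27ac peaks and from 87089 to 170984 ATAC peaks, and with 2 lists per group no difference between groups was tested.

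**Figure D5:**
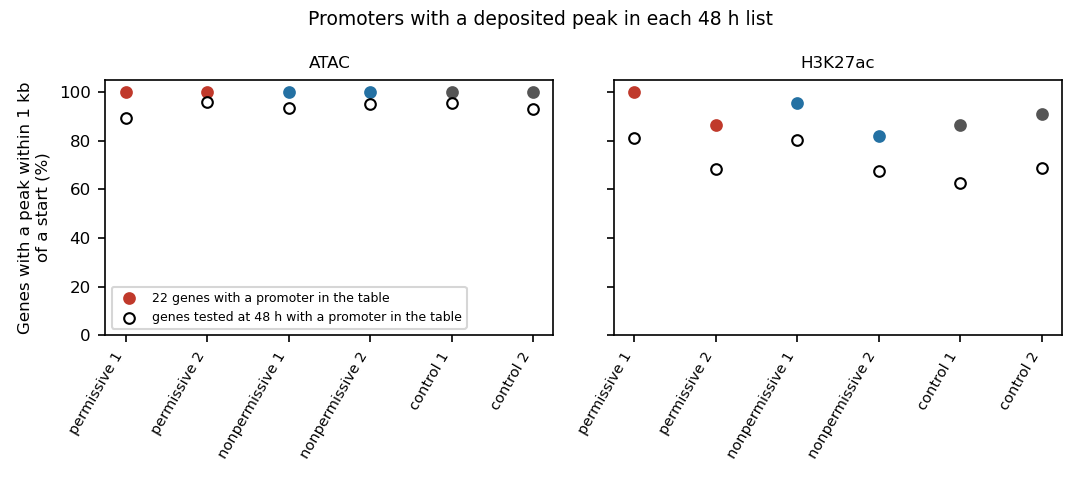
Share of genes with a deposited peak within 1 kb of an annotated start (y axis, percent) in each 48 h ATAC or H3K27ac list; filled points are the 22 genes with a promoter in the RefSeq table, coloured by group, and open points are the 10058 tested genes. All 6 ATAC lists reach 100% of the 22 genes, beside 89.4% to 95.8% of the tested genes.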

How the data were processed

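Per the submitters' processing notes, the tools used were STAR, RSEM, DESeq2, UMI-tools, Bowtie2 and MACS2, with the build mm10; the notes give no order or settings. Per the file headers, the deposited RNA tables are RSEM gene tables, of which the expected counts (estimated counts per gene) and the TPM computed by the authors were used. The deposited peak lists, 1 per library, hold MACS2's fold enrichment ratio and −log10 q per peak as the authors' values. Gene symbols came from Ensembl identifiers (48349 of 48709 matched).

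Expected counts were rounded to whole numbers, genes were filtered with filterByExpr, and libraries were scaled with TMM. The edgeR 4.0.16 quasi-likelihood test in R 4.3.3 was fitted to the 6 libraries at 24 h and, apart, to the 8 libraries at 48 h in 1 fit with 3 groups. Tests are two-sided, with Benjamini-Hochberg adjustment over all 15174 or 13411 genes tested. All 28 genes passed the filter at both times. Alternatives were other size factors, no filter, DESeq2 1.42.0, a replicate block, each library left out, and the compared groups alone; leaving out mitochondrial genes, or libraries over 15%, was added after seeing the data. A peak counted for a gene where it lay within 1 kb of the start; a window of 250 bases, a −log10 q of at least 10 and an overlap of at least 100 bases were tried.

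Deviations from the group means correlated between same-numbered permissive and nonpermissive libraries at r = 0.58, 0.15 and 0.13 over 7484 genes. Among differently numbered ones, nonpermissive replicate 3 with permissive replicate 2 had r = 0.19, and nonpermissive replicate 2 with permissive replicate 3 had 0.14. Control replicate 1 had r = 0.51 with permissive replicate 1 and 0.34 with nonpermissive replicate 1, and negative r with the differently numbered libraries. Only the libraries of replicate 1 thus stood apart, and pairing by number is not established. They also had the lowest mitochondrial share of each 48 h group, 3.16% in permissive, 6.50% in nonpermissive and 4.11% in control libraries. A batch shared by these libraries was not tested. The blocked p is given as an alternative where it changes a call. Values in every library are given for each gene called in at least 1 comparison and for the gene with the highest TPM in each group; other genes are given by range or fold change. From each other list, up to 4 called genes per comparison are named, by smallest adjusted p. The members and lists were chosen with earlier results of these data known. Promoters are RefSeq's (GRCm38.p6).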

Additional observations from a re-analysis of the deposited data

Results flagged for a closer look

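Hmgcs1 moved in opposite directions at the 2 times: its log2 fold change was 1.78 in permissive against control cells at 48 h and -0.47 in DAPT against DMSO cells at 24 h. Every permissive library was above both control libraries, and every DAPT library was below all 3 DMSO libraries. The sorted cells and the library kits differ between the times, and the difference between the 2 effects was not tested.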

How the results depend on the processing

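Over single genes, 384 of the alternative values kept the side of the threshold, 93 lost a call and 28 gained one, and none of the called differences changed sign. In permissive against control cells, leaving out each library gave 1066 to 1738 genes called (1743 with all) and 1 to 9 of the 28 higher; without the 2 libraries rich in mitochondrial counts 6 were higher. With the replicate block 11 were higher and 1 lower (Elovl6, adjusted p = 0.0232), but pairing by number is not established, and there are only 2 control libraries. In nonpermissive against control cells the count of all genes called was 26, and 302 with no filter, 155 with DESeq2, 49 in a fit of the 2 groups alone, 14 without the libraries rich in mitochondrial counts, and 2 to 40 leaving out each library. In permissive against nonpermissive cells it was 1761, and 1101 without those libraries, which also left 2 of the 28 higher and 0 lower; leaving out each library gave 1 to 8 higher, and the block gave 10 higher and 1 lower. DESeq2 called 13 higher against control cells and 12 against nonpermissive cells. At 24 h leaving out each library gave 2573 to 4948 genes called, 2 to 4 of the 28 higher and 4 to 6 lower; same-numbered libraries did not deviate together (r of 0.008, -0.047 and -0.074), and the block gave 3 higher and 5 lower, losing Sqle and Ebp and adding Hsd17b7 (adjusted p = 0.0283). Requiring a −log10 q of at least 10 left 0 of 22 genes with an H3K27ac peak in 2 lists, against 18 or more with every peak. These were nonpermissive replicate 2 and permissive replicate 2, where the cutoff left 10.2% and 1.27% of the 10058 tested genes. It left 17 of 22 in nonpermissive replicate 1 and 19 of 22 in permissive replicate 1, beside 55.2% and 52.6% of tested genes. In control replicates 1 and 2 it left 3 of 22 each, beside 3.16% and 7.97%. The cause of these changes was not tested, except that fewer samples were fitted where libraries were left out. At 2165338 to 4896374 counts per library and 2 control libraries, the standard errors of the 28 genes in permissive against control cells were 0.39 to 0.85 on the log2 scale at 48 h, against 0.07 to 0.24 at 24 h, and low genes are limited by counting error.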
